A study of Mus musculus with 384 samples.

Results

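The comparison set 6 brain regions of the same mice against each other as 2 sides, by the region named in each sample label. Side 1 held the libraries labelled AMY, BNST and PFC (amygdala, bed nucleus of the stria terminalis and prefrontal cortex). Side 2 held those labelled PVN, dCA1 and vCA1 (paraventricular nucleus and the dorsal and ventral CA1 region of the hippocampus). Of 192 labelled samples of these regions, 189 had values, 95 on side 1 and 94 on side 2, out of 380 libraries with values in the whole series. All came from 32 male Balb/c mice, of which 29 had all 6 libraries and 3 had 5. The labels put 8 mice each in 4 groups, of status MS or Co and of injection inject or naive, and give the age as postnatal day 9. The study describes adult mice reared with early handling or with limited material and later kept with an ovariectomized female or exposed to chronic social defeat, and no source pairs these conditions with the label groups. For each of 69 targeted assays the libraries of a mouse were averaged per side, and the sides were compared within mice. The study's methods put 3 regions on each of 4 library plates, without naming which regions shared a plate. The sides may lie on different plates, so that side and plate cannot be told apart in any result below.

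The amygdala, the bed nucleus and the prefrontal cortex take part in threat appraisal and in its control, and project towards the hypothalamus. The paraventricular nucleus holds the neurons that start the hormonal stress response, and CA1 is an output field of the hippocampus. Glucocorticoids released in that response act back on all of these regions through the glucocorticoid receptor, a transcription factor encoded by Nr3c1, which is inactive in a complex with chaperones until hormone binds. The assays were chosen by the study mainly for genes whose response to this receptor varies with certain genetic variants. These variants were also tied to the risk of major depression or schizophrenia. The 69 assays outnumber the genes that the study analysed. Of 11 genes sought as markers of the regions or of neurons, 0 had an assay, and the region labels could not be checked against defining markers.

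Both sides were sequenced to similar but not equal depth, between 12898 and 226629 reads per library with a median of 106245. The mean per mouse was 100449 ± 20629 reads (SD, n = 32) on side 1 and 117130 ± 22013 on side 2, lower on side 1 in 21 of 32 mice (2-sided permutation test of signs, p = 0.00686). The part of this depth difference in the results was not tested beyond leaving out the 8 libraries under 50000 reads, which gave 33 called genes in place of 32 (18 higher and 15 lower), with 30 in common. Of the 2 lost, Rela had an adjusted p of 0.16 and Vhl of 0.16. Values are the reads of a gene over the size factor of its library, and a count of 3 reads corresponded to a median of 3.86 and at most 27.8 normalized units. Assays amplify with unequal efficiency, so levels were compared between libraries and not between genes. In such bulk punches fewer cells of a type and less RNA per cell cannot be told apart.

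The 2 sides differed in many of the assayed genes. By limma on the within-mouse differences of log2(value + 1), 32 of 69 genes passed a Benjamini-Hochberg adjusted p of 0.1 (46.4%), with 19 higher (27.5%) and 13 lower (18.8%) on side 1. Ociad2 was lower on side 1 in every mouse, with side 2 at 2.03 times its level, and Anxa2 and Nr3c1 were lower too. Rps2 and Slco3a1 had the highest positive differences, and Rps25 was higher in every mouse by a smaller amount. The median difference over all 69 genes was 0.04 on the log2 scale. Under TMM factors, another scaling of the libraries, 42 genes passed, 18 higher and 24 lower, so that the balance of directions depended on the scaling. In 17 other settings, each at the threshold of 0.1, all 32 called genes had the same direction as here, and 21 of them passed in every one, 12 higher and 9 lower. Some genes without a call changed sign between settings.

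**Figure D1:**
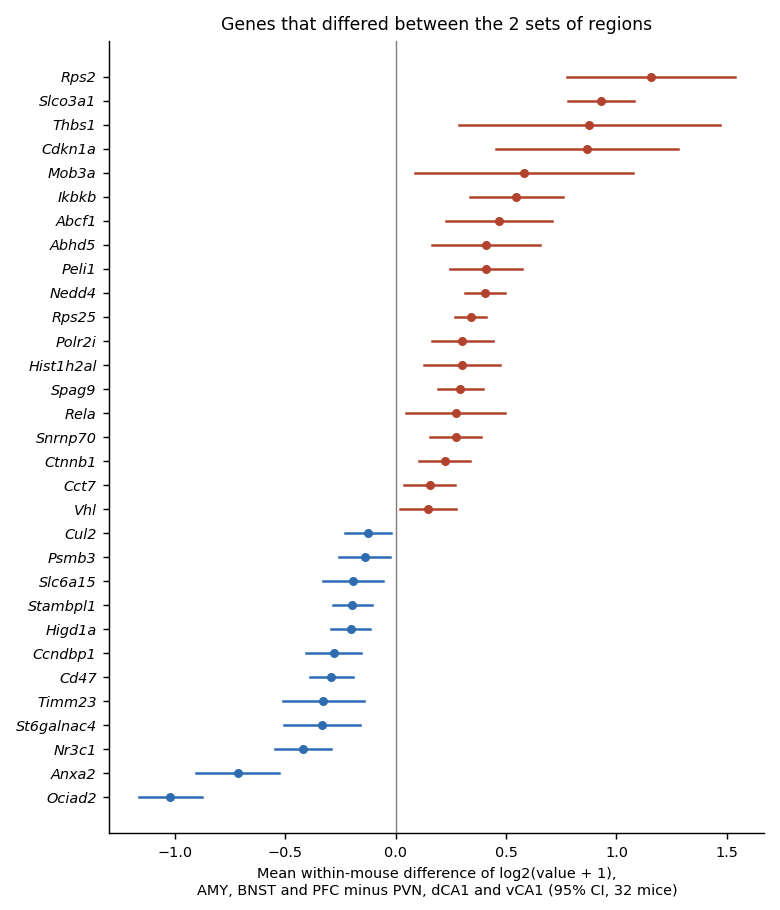
Mean within-mouse difference of log2(value + 1), side 1 (AMY, BNST, PFC) minus side 2 (PVN, dCA1, vCA1), for 31 of the 32 genes called, with 95% confidence intervals over 32 mice. Points to the right of 0 (red) are the 19 genes higher on side 1 and points to the left (blue) 12 of the 13 lower, with Rps2 at 1.16 and Ociad2 at -1.02 at the ends.

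Ociad2 encodes an OCIA domain protein found at endosomes and mitochondria, and lies on chromosome 5 at 73322199 to 73341028 (GRCm38, minus strand). Its normalized value per mouse was between 672 and 1370 on side 1, with a median of 1133. On side 2 it was between 1488 and 3070, with a median of 2195. The ranges did not overlap, and Ociad2 was the only 1 of the 69 genes for which they did not. The mean difference was -1.02 ± 0.07 on the log2 scale (SE, n = 32 mice), lower on side 1 in 32 of 32 mice (limma, adjusted p = 4.21e-14). The other 6 regions of the same mice were labelled CER, dCA3, vCA3, dDG, vDG and Pit. Averaged over them in the same way, Ociad2 was 969 to 2142 with a median of 1509, between the sides. Such a mean over 6 regions need not hold for any 1 of them.

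Single libraries showed that the side 2 values of Ociad2 were spread over a wider range than the means per mouse. The highest side 1 library stood at 1960 normalized units, and 63 of 94 side 2 libraries were above it. These were 23 of 30 PVN, 24 of 32 dCA1 and 16 of 32 vCA1 libraries. The other side 2 libraries had values within the range of side 1, down to 661 in dCA1, 692 in PVN and 713 in vCA1. By label group the high libraries were 16 of 23 in MS inject, 15 of 23 in MS naive, 16 of 24 in Co inject and 16 of 24 in Co naive. The share of high libraries was thus similar in the label groups, while vCA1 had the lowest share of the regions.

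**Figure D2:**
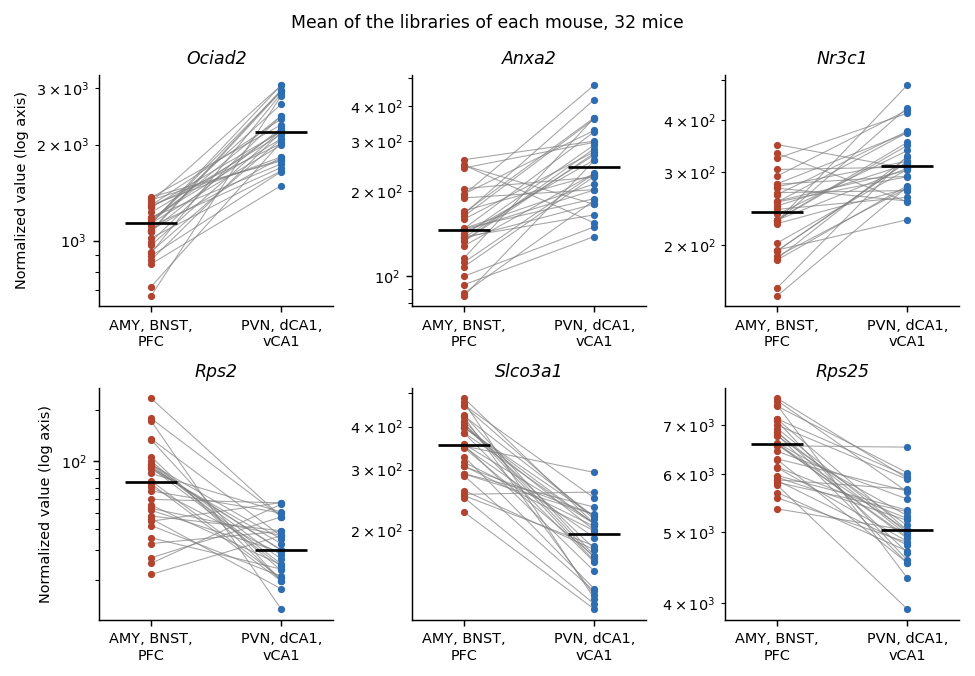
Normalized value per mouse (log axis) on side 1 (red, mean of AMY, BNST and PFC) and side 2 (blue, mean of PVN, dCA1 and vCA1) for 6 genes, with a grey line for each of 32 mice and a black bar at the median. All 32 lines rise towards side 2 for Ociad2 and all 32 fall for Rps25, whereas 5 of 32 lines for Rps2 rise.

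Nr3c1, the glucocorticoid receptor gene on chromosome 18 at 39410545 to 39519421 (minus strand), was lower on side 1. Its values per mouse were between 151 and 349 on side 1 (median 240) and between 230 and 486 on side 2 (median 311). The ranges overlapped, but 29 of 32 mice had the lower value on side 1. The difference was -0.42 ± 0.06 on the log2 scale (SE, n = 32; limma, adjusted p = 1.47e-06). The other 6 regions had a median of 391, above both sides. Of the receptor and chaperone genes listed, 4 of 11 had an assay. Cct7, a subunit of the chaperonin that folds actin and tubulin, was higher by 0.15 ± 0.06 (adjusted p = 0.026), a call that was lost without AMY, at 0.14 (adjusted p = 0.11), or without dCA1, at 0.11 (adjusted p = 0.24). Hsp90aa1, a chaperone that holds the receptor ready for hormone, had a difference of -0.10 ± 0.05 with an adjusted p of 0.13. It passed in 5 of 17 other settings, with the lowest adjusted p of 0.016 at a difference of -0.16 without BNST, so that its call depended on the setting. Fkbp5, a co-chaperone that the receptor induces, had a difference of -0.04 ± 0.21 (adjusted p = 0.90) at 62.6 and 54.1 normalized units in the median mouse of side 1 and side 2.

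Of 6 assayed genes of translation 3 were higher and 0 lower, with a median difference of 0.26 against 0.04 over all genes. Over all 69 genes 27.5% were higher and 46.4% were called. Rps25, a small ribosomal subunit protein, had values per mouse of 5376 to 7607 on side 1 (median 6585) and of 3923 to 6526 on side 2 (median 5025). It was higher on side 1 in 32 of 32 mice, by 0.34 ± 0.03 (SE; limma, adjusted p = 5.7e-10). Rps2, another protein of that subunit, was between 21.7 and 234 on side 1 (median 75.2) and between 13.5 and 57.3 on side 2 (median 30.1). Its difference was 1.16 ± 0.19 (adjusted p = 4.71e-06), higher in 27 of 32 mice, and it was at 0 in 6 libraries of side 1 and 15 of side 2. Abcf1, an ATP-binding protein that aids translation initiation, was higher by 0.47 ± 0.12 (adjusted p = 0.00124). Rps12, at median values of 16910 and 16893, had a difference of 0.01 ± 0.04 (adjusted p = 0.90), so that the 3 ribosomal protein assays did not move together. Ribosomal protein genes have many near-identical processed copies in the genome, and reads of a short assay may come from more than 1 of them, which makes Rps2 and Rps25 uncertain as single genes.

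Of the genes of mitochondria, Ociad2, Timm23 and Higd1a made 3 of 5 assayed genes lower and 0 higher, with a median of -0.20. Over all 69 genes 18.8% were lower and 46.4% were called, and with 5 members the counts say little about mitochondria as a group. Timm23, the channel of the inner membrane translocase, had a difference of -0.33 ± 0.09 (adjusted p = 0.0029) and medians of 244 and 317. Higd1a, a small inner membrane protein associated with the respiratory chain, had -0.20 ± 0.04 (adjusted p = 0.000252), lower in 26 of 32 mice. Atp5f1, a subunit of ATP synthase, had -0.04 ± 0.03 (adjusted p = 0.22).

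Ubiquitin and proteasome genes were called in both directions, 2 higher and 2 lower of 7 assayed, near the 46.4% called over all 69 genes. Nedd4, a ubiquitin ligase of membrane proteins, had values per mouse of 913 to 1467 on side 1 (median 1224) and of 682 to 1209 on side 2 (median 896). It was higher in 30 of 32 mice, by 0.40 ± 0.04 (limma, adjusted p = 3.88e-09). Peli1, a ligase of Toll-like receptor signalling, was higher by 0.41 ± 0.08 (adjusted p = 6.97e-05). Stambpl1, an enzyme that takes ubiquitin chains off, was lower, at -0.20 ± 0.04 (adjusted p = 0.000397). Psmb3, a subunit of the proteasome core, was at -0.14 ± 0.06 (adjusted p = 0.043) and was not called with rescaled totals, at -0.10 (adjusted p = 0.17), without AMY, at -0.14 (0.11), or without vCA1, at -0.10 (0.32). Nedd4l, the close relative of Nedd4, had a difference of 0.04 ± 0.07 (adjusted p = 0.70). In no list, Vhl, a substrate receptor of cullin ligases, was higher by 0.15 ± 0.06 (adjusted p = 0.059), and Cul2, the cullin it binds, was at -0.13 ± 0.05 (adjusted p = 0.046). Vhl passed in 12 of 17 other settings, with 0.03 and an adjusted p of 0.79 without AMY and an adjusted p of 0.27 with TMM factors. Cul2 passed in 13 of 17, with adjusted p-values of 0.12 to 0.24 in the others. These last 2 genes were picked with their values already known.

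Of 9 genes of membrane transport, lipids and glycans 2 were higher and 3 lower, near the share called over all genes (46.4%). Slco3a1, an organic anion transporter on chromosome 7 at 74275419 to 74554780 (minus strand), had values per mouse of 226 to 483 on side 1 (median 355). On side 2 it was between 118 and 295 (median 195). It was higher on side 1 in 31 of 32 mice, by 0.93 ± 0.07 (SE; limma, adjusted p = 1.07e-12). Abhd5, the activator of a triglyceride lipase, was higher by 0.41 ± 0.12 (adjusted p = 0.00496), but not without AMY, at 0.29 (adjusted p = 0.13). Its mean difference was 0.74 ± 0.66 in MS inject and 0.75 ± 0.65 in Co inject (SD, 8 mice each, 7 of 8 higher in both), and 0.01 ± 0.75 in MS naive and 0.14 ± 0.42 in Co naive. The injection term was 0.67 ± 0.22 (SE; limma, adjusted p = 0.17), so that this gap did not pass over all genes. The sialyltransferase gene St6galnac4 was at -0.33 ± 0.08 (adjusted p = 0.00124), and the neutral amino acid transporter gene Slc6a15 at -0.19 ± 0.07 (adjusted p = 0.017). Slc6a15 rested on vCA1, with -0.08 and an adjusted p of 0.40 when that region was left out. The 4 genes of iron, haem and nucleotide metabolism were all without a call.

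Of 8 genes of signalling and the cell cycle 4 were higher and 1 was lower, where 27.5% of all 69 genes were higher and 18.8% lower. Cdkn1a, the cyclin-dependent kinase inhibitor p21, had values per mouse of 10.8 to 189 on side 1 (median 86.7) and of 2.06 to 134 on side 2 (median 44.6). The ranges overlapped widely, and the difference was 0.87 ± 0.20 (SE; limma, adjusted p = 0.000597), higher in 25 of 32 mice. Ctnnb1, which encodes beta-catenin, was higher by 0.22 ± 0.06 (adjusted p = 0.00173), and Spag9, a scaffold of stress-activated kinases, by 0.29 ± 0.05 (adjusted p = 1.22e-05). Mob3a, of the MOB family of kinase regulators, was at 0 in 17 libraries of side 1 and 19 of side 2. Its difference of 0.58 ± 0.24 (adjusted p = 0.0497) came to 0.10 without AMY (adjusted p = 0.84), to 0.48 without dCA1 (adjusted p = 0.14) and to 0.47 with logarithms averaged in place of values (adjusted p = 0.28). Ccndbp1, a binding partner of cyclin D, was at -0.28 ± 0.06 (adjusted p = 0.000305), and at -0.15 without vCA1 (adjusted p = 0.12). In no list, both Ikbkb, a kinase that activates NF-kB, and Rela, an NF-kB subunit, were higher, by 0.55 ± 0.10 (adjusted p = 5.66e-05) and 0.27 ± 0.11 (adjusted p = 0.046). Ikbkb passed in all 17 other settings and Rela in 12, with a difference of 0.12 and an adjusted p of 0.55 without PFC and adjusted p-values of 0.11 to 0.24 in the other 4. Rela was picked with its values already known.

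Of 10 genes of RNA processing and transcription 3 were higher and 0 were lower, near the 27.5% higher over all 69 genes. Polr2i, a subunit of RNA polymerase II, was higher by 0.30 ± 0.07 (adjusted p = 0.000454) in 27 of 32 mice. Snrnp70, of the U1 splicing particle, was higher by 0.27 ± 0.06 (adjusted p = 0.000197). The third, Hist1h2al, is annotated as a processed pseudogene among near-identical histone genes and is uncertain, at 0.30 ± 0.08 (adjusted p = 0.00341) and 0.20 without AMY (adjusted p = 0.11).

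Immune, glial and vascular genes were called in both directions, 1 higher and 2 lower of 9 with an assay, against 46.4% called over all 69 genes. Anxa2, a calcium-dependent membrane-binding protein abundant in vessels and meninges, had values per mouse of 85.0 to 258 on side 1 (median 146) and of 138 to 474 on side 2 (median 243). It was lower on side 1 in 30 of 32 mice, with a difference of -0.72 ± 0.09 on the log2 scale (SE; limma, adjusted p = 9.41e-08). In the other 6 regions it was higher than on either side in the median mouse, at 637, and reached 4702. Cd47, a surface signal that restrains phagocytes, was at -0.29 ± 0.05 (adjusted p = 4.71e-06). Slc7a7, also in the transport list, had -0.65 ± 0.33 (adjusted p = 0.11) and passed in 7 of 17 other settings. It was at 0 in 35 libraries of side 1 and 24 of side 2. Thbs1, a matrix glycoprotein that vessels and astrocytes secrete, was higher by 0.88 ± 0.29 (adjusted p = 0.014), although 32 libraries of side 1 and 36 of side 2 were at 0. That call was lost without AMY, BNST or PFC (adjusted p = 0.43, 0.29 and 0.29) and with logarithms averaged (0.20). Of the markers of glia, blood cells and vessels sought, 6 had an assay, namely Anxa2, Lrrc25, Thbs1, Tmem176a, Tnf and Zap70. Their summed value per mouse was 349 to 616 on side 1 (median 485) and 355 to 950 on side 2 (median 579). The sum adds assays of unequal efficiency and rests mostly on Tmem176a (medians 270.0 and 309) and Anxa2. Tnf was at 0 in 89 of 95 libraries of side 1 and 90 of 94 of side 2, Lrrc25 in 67 and 60, and Zap70 in 42 and 32. The part of such cells in the other differences was not tested.

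Of the 69 assayed genes 50 have a promoter in the RefSeq table of GRCm38.p6. The letters AGAACA or TGTTCT, 1 strand each of a half-site of the glucocorticoid receptor, occurred in the 250 bases before a start listed there for 7 of these genes, counting every listed start. They were 2 of 15 higher, 1 of 9 lower and 4 of 26 not called. Of the 71 promoters of these genes 11.3% held a match, against 16.1% of all 32851 promoters. The 250 bases are shown for the 3 called genes with a match, with the matches in capitals, to let their surroundings be read beside the values above. They are Nedd4 at chr9:72693048-72693297, Polr2i at chr7:30231824-30232073 and Stambpl1 at chr19:34217258-34217507, all on the plus strand and 5′ to 3′. The windows of Nedd4 and Stambpl1 precede alternative starts that lie inside the annotated genes, which begin at 72662346 and 34192229. The window of Polr2i also runs into its annotated gene, which begins at 30231948. The table lists 2 promoters for Nedd4 and 4 for Stambpl1, and those nearest the first base of these genes held no match. Which start the measured RNA came from was not tested.
Nedd4: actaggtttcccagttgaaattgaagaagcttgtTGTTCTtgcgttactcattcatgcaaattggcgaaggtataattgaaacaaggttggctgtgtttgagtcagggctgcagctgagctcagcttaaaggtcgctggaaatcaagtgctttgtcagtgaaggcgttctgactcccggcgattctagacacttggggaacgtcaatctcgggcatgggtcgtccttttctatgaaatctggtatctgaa
Polr2i: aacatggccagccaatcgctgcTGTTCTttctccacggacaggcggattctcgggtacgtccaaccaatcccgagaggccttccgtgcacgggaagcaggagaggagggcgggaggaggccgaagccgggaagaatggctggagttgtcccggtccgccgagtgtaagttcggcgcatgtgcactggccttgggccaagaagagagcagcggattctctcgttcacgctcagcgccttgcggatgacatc
Stambpl1: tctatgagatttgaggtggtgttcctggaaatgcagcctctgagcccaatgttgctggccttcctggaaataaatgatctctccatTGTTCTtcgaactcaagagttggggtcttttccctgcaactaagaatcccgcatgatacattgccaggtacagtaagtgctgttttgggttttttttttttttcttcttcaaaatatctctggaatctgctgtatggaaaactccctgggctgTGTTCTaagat
A match is a run of letters and not a measured binding site.

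The single regions were then compared to see whether 1 of them carried the difference of its side. In the 9 pairs of regions across the sides, 11 to 26 of 69 genes were called by limma within mice, with a median of 17. The lowest count was for PFC against PVN (11 genes, 15.9%), and the highest counts were for AMY against dCA1 and AMY against vCA1 (26 genes each, 37.7%). AMY against PVN had 14 (20.3%), BNST had 17 against PVN and against dCA1 (24.6% each) and 21 against vCA1 (30.4%), and PFC had 15 against dCA1 (21.7%) and 17 against vCA1 (24.6%). In the 6 pairs within a side, 0 to 6 genes were called, with a median of 1. The counts were 0 for AMY against PFC, PVN against dCA1 and dCA1 against vCA1, where 3, 3 and 10 genes had an unadjusted p under 0.05. The other pairs within a side had 6 (AMY against BNST, 8.70%), 5 (PVN against vCA1, 7.25%) and 2 (BNST against PFC, 2.90%). With values rescaled to the same total, the within-side median came to 9 genes with a highest count of 15, against a median of 15 and a highest count of 27 across. The gap between the kinds of pairs was therefore much smaller on that scale. The pairs share libraries and their counts are not independent.

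**Figure D3:**
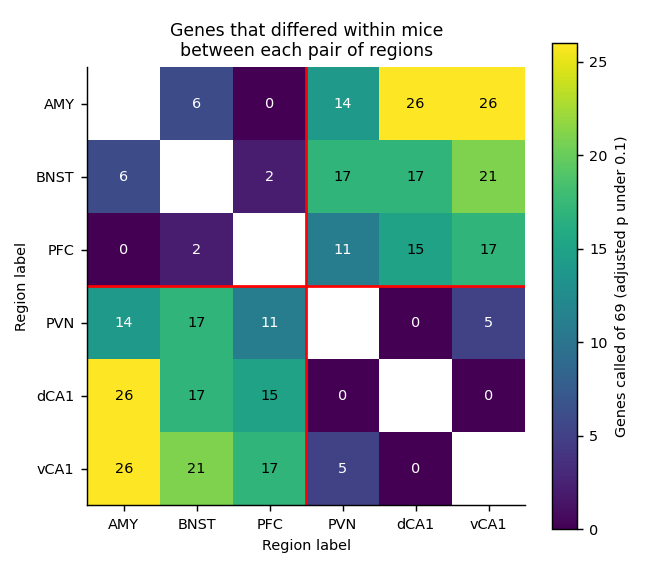
Number of genes of 69 called within mice (limma, adjusted p under 0.1) for each pair of the 6 region labels, with red lines between side 1 (AMY, BNST, PFC) and side 2 (PVN, dCA1, vCA1). The 9 pairs across the sides hold 11 to 26 genes and the 6 pairs within a side 0 to 6.

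Across the 9 pairs, 42 genes were called at least once and 15 in 5 or more. Nedd4, Rps25 and Slco3a1 were higher on side 1 in all 9 pairs and Ociad2 was lower in all 9. Anxa2 was lower in 8 pairs, Nr3c1 in 6, Rps2 was higher in 6 and Cdkn1a in 4, while Thbs1 and Psmb3 were called in 0 pairs. The pairs of Rps2 without a call (limma) were those of BNST. They stood at 0.66 against PVN (adjusted p = 0.40), 1.31 against dCA1 (0.16) and 0.31 against vCA1 (0.83). Ikbkb was called in 5 pairs and Abcf1 in 1. For Ikbkb the pairs of PFC were not called, at 0.05 against PVN (adjusted p = 0.91), 0.57 against dCA1 (0.37) and 0.41 against vCA1 (0.44). For 24 genes (34.8%) the 3 region means of a side all lay beyond those of the other, 22 of them among the 32 called between the sides.

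The region medians show the shape of these differences. Slco3a1 had medians of 313 in AMY, 433 in BNST and 350 in PFC, and of 217 in PVN, 170 in dCA1 and 200 in vCA1. Nedd4 had medians of 1197, 1325 and 1147 on side 1 and of 860, 882 and 959 on side 2. For both genes each side 1 region had a higher median than any side 2 region. Single libraries overlapped, as Slco3a1 was between 47.5 and 672 on side 1 and between 1.68 and 388 on side 2.

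Nr3c1 was less even within its side. Its medians were 256 in AMY, 238 in BNST and 231 in PFC, and 327 in PVN, 339 in dCA1 and 268 in vCA1. The 3 regions of side 2 differed in this gene (moderated F test with the mouse as a term, adjusted p = 0.048), and PVN was above vCA1 by 0.34 ± 0.12 (limma, adjusted p = 0.094). The vCA1 median lay between those of PVN and AMY. Of the 9 pairs across the sides, the 6 against PVN and dCA1 were called, while the 3 against vCA1 were not, at -0.21 for AMY (adjusted p = 0.40), -0.21 for BNST (0.22) and -0.23 for PFC (0.40).

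**Figure D4:**
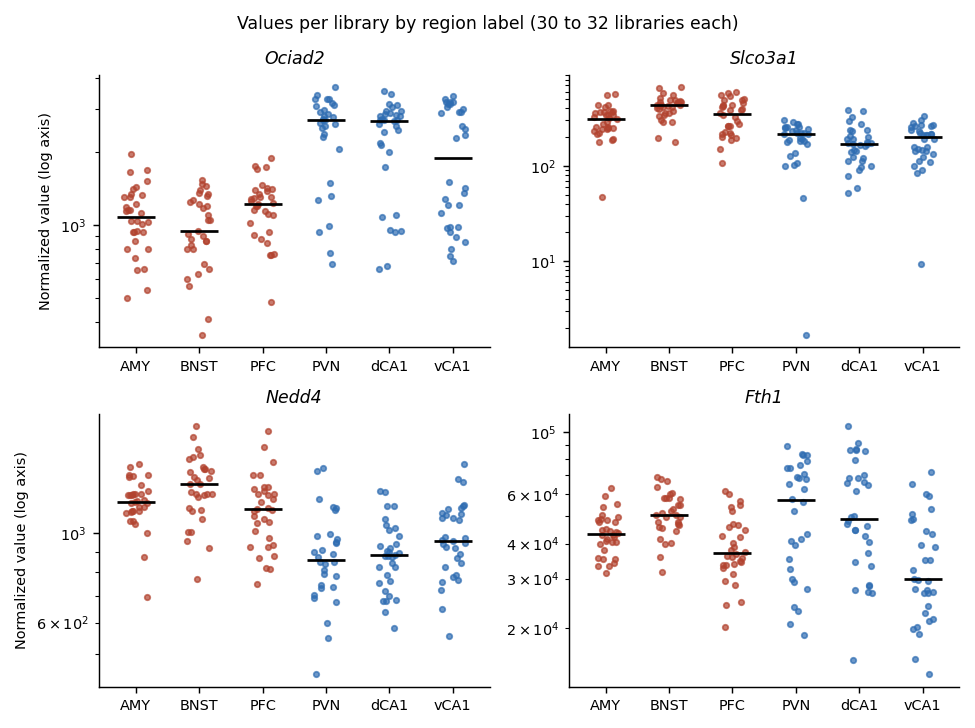
Normalized value per library (log axis) for the 6 region labels, side 1 in red and side 2 in blue, with a black bar at the median of 30 to 32 libraries. Ociad2 libraries of side 2 lie partly above and partly within the range of side 1, Slco3a1 and Nedd4 medians are higher in the 3 red regions, and Fth1 differs among regions of both sides.

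Some genes differed among the regions of a side. Within side 1, 3 genes were called by the F test (4.35%), namely Fth1 (adjusted p = 0.00121), Pitpnm2 (0.00441) and Slco3a1 (0.089). Within side 2, 4 genes were called (5.80%), namely Fth1, Nr3c1 and Pitpnm2 (adjusted p = 0.048 each) and Tmem176a (0.062). The count within side 2 fell to 1 in libraries of at least 50000 reads and was larger with rescaled totals. Fth1, the iron-storing heavy chain of ferritin, had medians of 43226 in AMY, 50674 in BNST and 36965 in PFC. On side 2 it had 57003 in PVN, 49001 in dCA1 and 29789 in vCA1. Its values were high in PVN and BNST and low in vCA1 and PFC, and the difference between the sides was -0.07 ± 0.06 (adjusted p = 0.37), a value that ran from -0.24 to 0.10 over the other settings and passed in 2 of them. Fth1 has processed copies in the genome and was the assay with most reads in 170 of 189 libraries. Pitpnm2, a phosphatidylinositol transfer protein, was higher in AMY than in BNST by 0.73 ± 0.17 (adjusted p = 0.012) and in PVN than in vCA1 by 0.72 ± 0.25 (adjusted p = 0.094). Its difference between the sides was 0.13 ± 0.10 (adjusted p = 0.27), and it passed in 3 of 17 other settings. Fth1, Pitpnm2 and Nedd4l were called in both directions among the 9 pairs across the sides.

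The profile of each single library was set against the 6 region means, of which 3 belong to its own side and 1 to its own region. With each library left out of its own region mean, 147 of 189 libraries (77.8%) were nearest to a region of their own side and 51 (27.0%) to their own region, by Pearson's r of log2 values over the 64 genes whose mean was 10 or more. PFC libraries were nearest to PFC in 2 of 32 and to side 1 in 26 of 32. Libraries of vCA1 were nearest to vCA1 in 15 of 32 and to side 2 in 25 of 32. BNST libraries had the lowest share on their own side, 21 of 31.

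The side differences were similar in sign in the label groups. Of the 32 called genes, 29 had the same sign of the mean difference in all 4 groups, and Mob3a, Rela and Vhl did not. For Ociad2 the mean difference on the log2 scale was -0.99 ± 0.33 in MS inject, -0.98 ± 0.48 in MS naive, -1.09 ± 0.41 in Co inject and -1.02 ± 0.42 in Co naive (SD, 8 mice each). For Nr3c1 it was -0.44 ± 0.35, -0.39 ± 0.46, -0.24 ± 0.24 and -0.61 ± 0.28 in the same order. The gaps between the Ociad2 means were smaller than these SDs. For Nr3c1 the widest gap, between Co inject and Co naive, was larger than the SDs of both groups, and the label terms had adjusted p-values of 0.97 (status), 0.95 (injection) and 0.94 (interaction).

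Whether the side difference depended on the label groups was tested with limma on the same differences. By label status (MS or Co) 0 of 69 genes were called (0.0%), 3 had an unadjusted p under 0.05 and the smallest adjusted p was 0.71. That value was shared by Fan1, Rela and Cdkn1a. For Cdkn1a, picked with its values already known, the side difference was 1.12 ± 0.80 in MS inject and 1.54 ± 1.04 in MS naive (SD, 8 mice each), and 0.53 ± 1.33 in Co inject and 0.28 ± 1.22 in Co naive. For the interaction of status and injection 0 genes were called (0.0%), 2 had an unadjusted p under 0.05 and the smallest adjusted p was 0.13. By label injection 1 gene was called (1.45%), namely Tm2d1, which encodes a transmembrane protein that binds amyloid beta. Its side difference was -0.08 ± 0.15 in MS inject and -0.06 ± 0.16 in Co inject, and 0.09 ± 0.24 in MS naive and 0.29 ± 0.20 in Co naive. All 8 Co naive mice had the higher value on side 1, against 2 of 8 Co inject mice. Among the MS mice it was higher in 6 of 8 naive and 3 of 8 inject mice. The difference between inject and naive was -0.26 ± 0.07 (SE, n = 32; limma, adjusted p = 0.076). It was not called in 9 of 17 other settings, among them without AMY, PFC, PVN or dCA1, with rescaled totals and in libraries of at least 50000 reads.

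**Figure D5:**
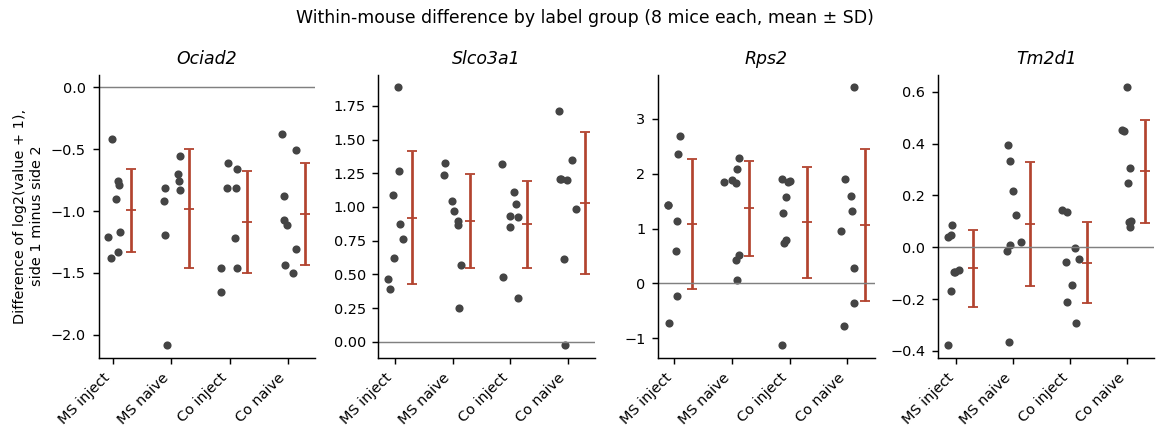
Within-mouse difference of log2(value + 1), side 1 minus side 2, for 4 genes by label group, with a point for each of 8 mice and the mean ± SD in red. Ociad2 lies below 0 in all 32 mice and Slco3a1 above 0 in 31 of 32, with similar means in the 4 groups, while Tm2d1 has lower means in both inject groups than in the naive groups.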

How the data were processed

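Targeted RNA libraries (TruSeq Targeted RNA sequencing) of frozen brain punches were analysed for 6 regions of 32 mice. The authors removed reads of low quality or short length with PRINSEQ lite 0.20.4, aligned them with BWA 0.7.12 to the assay manifest, normalized with DESeq2, and deposited a signal, which is the reads of a gene over the size factor of its library. The study's methods also describe surrogate variables found as hidden technical batches, which served as covariates in its expression models. Genes under 2000 reads and outlier samples were left out there. The tests reported here used no such covariates and kept all 69 assays, 4 of them under 2000 reads. The submitters' processing notes name mm10. All 26220 deposited values were whole multiples (tolerance 0.02) of 1 step per library, which gave the reads. Positions are those of GENCODE M21 (GRCm38), in which all 69 symbols matched.

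Values of a mouse were averaged per side, with 2 libraries where 1 was missing, and log2(mean + 1) was compared with limma 3.58.1 (R 4.3.3) on the differences of 32 mice, with Benjamini-Hochberg adjustment over 69 genes and the study's threshold of 0.1. Fold changes on this scale understate those of low genes. The pairing comes from the mouse named in the labels. The deviations of the 2 sides of a mouse from their label group means had a median correlation over genes of -0.02 (-0.56 to 0.52), against -0.01 between different mice. Within-side regions were compared with a moderated F test with the mouse as a term. Tests of depth were permutations of signs with 100000 resamples. Separate mice were the replicates. Replicate libraries of a region and label group correlated at a median of 0.906 (lowest 0.741, 651 pairs) and 0 pairs were identical. Reads of amplified libraries are not independent molecules, so that the limit of 3 reads covers counting error only. The model was tested on data simulated from these values, with known shifts added to some genes. Effects of plate or depth were not simulated, so that this test does not bear on them.

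Named genes were the 12 called with the highest and the 12 with the most negative difference (mean value of at least 10), Nr3c1, called genes of the label terms and up to 4 members of each list by mean value. Of these, 1 gene is not reported here, though it stays in all counts. Other names were added after their values had been seen. The members, lists and tests were chosen with earlier results of these data known. Alternatives were other pseudocounts, filters, thresholds and scalings, averaged logarithms, complete mice, deeper libraries, each region left out, no pairing and label group terms. Other steps ran in Python 3.11.15 with scipy 1.17.1, pandas 2.3.3, numpy 2.4.6 and, for figures, matplotlib 3.10.9.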

Additional observations from a re-analysis of the deposited data

Results flagged for a closer look

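In 11 of 108 groups of 8 mice, 1 mouse stood apart from the other 7 by Dixon's criterion, which chance does in about 1 group in 20. For the log2 side difference (side 1 minus side 2) these were Rps2 at -1.12 (mouse 235) among the Co inject mice, where the others were 0.74 to 1.90, and Mob3a at -2.89 (mouse 243) in the same group. Also in Co inject, Anxa2 stood at 0.67 (mouse 237) while the others were -1.64 to -1.03, and Ccndbp1 at -1.31 (mouse 267). In Co naive, Abhd5 stood at 1.04 (mouse 251) and Ccndbp1 at 0.22 (mouse 229). In MS naive, Ociad2 stood at -2.08 (mouse 107), where the others were -1.20 to -0.55, Polr2i at -0.99 (mouse 109), Abcf1 at 2.22 and Higd1a at -0.56 (both mouse 105). Mouse 243 had no BNST value and mouse 109 no PVN value, so that 1 side mean of each rested on 2 libraries. The mean depth of side 2 was 164972 reads in 1 MS naive mouse (mouse 101), where the next highest was 116445.

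The side difference of Tm2d1 differed between inject and naive mice by -0.26 on the log2 scale (limma, adjusted p = 0.076), as tested by the injection term.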

How the results depend on the processing

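The count of genes that differed between the sides was 26 to 42 over the other settings, with the lowest without AMY (12 higher, 14 lower) and the highest with TMM factors (18 higher, 24 lower), and 34 without the pairing of the mice, which kept all 32. The 32 called genes had the same direction in all of these settings, while some genes without a call changed sign, such as Fth1 (-0.24 to 0.10) and Fkbp5 (-0.40 to 0.15). By label status 1 gene was called without vCA1. By injection 0 genes were called at an adjusted p of 0.05, with a pseudocount of 10, in mice with all 6 libraries, in libraries of at least 50000 reads and without PFC, PVN or dCA1. With rescaled totals and without AMY the injection term called Abhd5 and not Tm2d1. Without the pairing the injection term called 2 genes and the interaction 1. With values rescaled to the same total, 8 genes differed within side 1 (2 of the 3 among them) and 15 within side 2 (3 of the 4), while libraries of at least 50000 reads left 1 within side 2. The median count of the pairs within a side moved from 1 to 4 with a pseudocount of 10, 2 with genes of a mean of at least 10, 2 with genes of at least 2000 reads, 9 with rescaled totals, 2.5 with TMM factors, 0.5 in libraries of at least 50000 reads and 3 without the pairing. The causes were not tested. For the named genes 737 values kept their side of the threshold, 30 gained a call and 15 lost it. The planned count test on recovered reads was not run, since 69 assays were too few for its check of whole reads. Thbs1, Mob3a and Rps2 were at 0 in part of the libraries, where a value under 3 reads cannot be told from 0, and the part of depth in these zeros was not tested.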
